A study of Mus musculus with 9 samples.

Results

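The oxidative phosphorylation genes were taken by name from the deposited expression tables: every gene whose symbol starts with Nduf, Uqcr or Atp5, or with Cox followed by a digit from 4 to 8, together with Sdha, Sdhb, Sdhc, Sdhd, Cyc1 and Cycs. Of 24318 listed genes, 94 met this naming rule and 88 of them had a mean of at least 1 FPKM, a level per transcript length and library size, over the 9 libraries. The libraries were polyA-selected RNA of cultured mouse cells in 3 groups of 3. Vehicle received no vesicles, CON-BDEV received extracellular vesicles from brain (BDEV), small membrane particles shed by cells, of the kind named as control, and SE-BDEV received those named after status epilepticus, in which seizures do not stop. The library names read CON, EV Saline and EV Pilo for the same 3 groups, and the labels give no dose, exposure time or genotype. The labels do not say that replicates were separate cultures, so p-values here reflect the spread between libraries alone, and that spread may be technical. In bulk RNA, a change in the number of cells of a type and a change in RNA per cell cannot be told apart.

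Oxidative phosphorylation is how mitochondria turn the electrons of NADH and succinate into ATP. Complex I (NADH dehydrogenase, the Nduf genes) and complex II (succinate dehydrogenase, the Sdh genes) pass electrons to coenzyme Q, complex III (the Uqcr genes and Cyc1) hands them on to the soluble carrier cytochrome c (Cycs), and complex IV (cytochrome c oxidase, the Cox genes) gives them to oxygen. The protons pumped on the way drive complex V, the ATP synthase (the Atp5 genes), and in microglia and macrophages the balance between this pathway and glycolysis is known to shift with the state of activation. A few core subunits of complexes I, III, IV and V are encoded in mitochondrial DNA, and 0 of them were listed in the tables, so every value here concerns nuclear genes.

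The cell line label names N2a, a line from a mouse neuroblastoma, while the study's design names BV2, a line of mouse microglia. All 12 of 12 microglia and macrophage markers reached 1 FPKM (median 153 FPKM), against 1 of 12 neuroblastoma and neuron markers, Elavl4 at 3.92 FPKM, with Th and Mycn listed at 0 in every library. Summed over the list, the microglial markers ran from 3573 to 3723 FPKM in Vehicle, 3713 to 3922 in CON-BDEV and 3670 to 4056 in SE-BDEV, and the neuronal list from 3.22 to 3.75, 3.73 to 5.24 and 4.10 to 4.45 FPKM. The part of these shifts in the results below was not tested. Read counts were not used here. Depth estimated from the smallest steps in 32 long genes was 29196000 to 33793000 fragments a library, which puts 1460 to 1690 fragments behind 100 FPKM in a transcript of 500 nt, a counting error of 2.43 to 2.62%.

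Not all 88 genes encode subunits. By textbook roles, 79 encode subunits or cytochrome c, 7 (Ndufaf1 to Ndufaf7) are assembly factors that help build complex I, and Atp5s and Atp5sl are not subunits of the ATP synthase. Ndufa4, named for complex I, was counted with complex IV, and Cox7a2l, also counted there, is known for joining complexes III and IV into supercomplexes. The 6 genes under the limit were isoforms of restricted tissues or conditions: Cox4i2 (mean 0.106 FPKM), Ndufa4l2 (0.0436 FPKM), and Cox6b2, Cox7b2, Cox8b and Cox8c, all listed at 0.

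The respiratory chain was expressed at high levels. The median member had a mean of 195 FPKM over the 9 libraries, against 16.3 FPKM for all genes at 1 FPKM or more, and the members made up 3.96 to 4.07% of summed FPKM in Vehicle, 4.13 to 4.19% in CON-BDEV and 4.0 to 4.10% in SE-BDEV. The CON-BDEV shares were all above those of the other groups. Levels were ordered by complex. On the FPKM scale the median was 523 for the 14 genes of complex IV, 468 for the 15 of complex V, 294 for the 9 of complex III, 197 for the 4 of complex II and 139 for the 36 of complex I. Within complex I, the 7 core subunits that carry flavin, iron-sulfur clusters or quinone contacts had a median of 132 FPKM and the 29 accessory subunits 143 FPKM. The assembly factors were far lower, with a median of 13.7 FPKM and a range from 5.91 (Ndufaf5) to 45.3 (Ndufaf2).

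**Figure D1:**
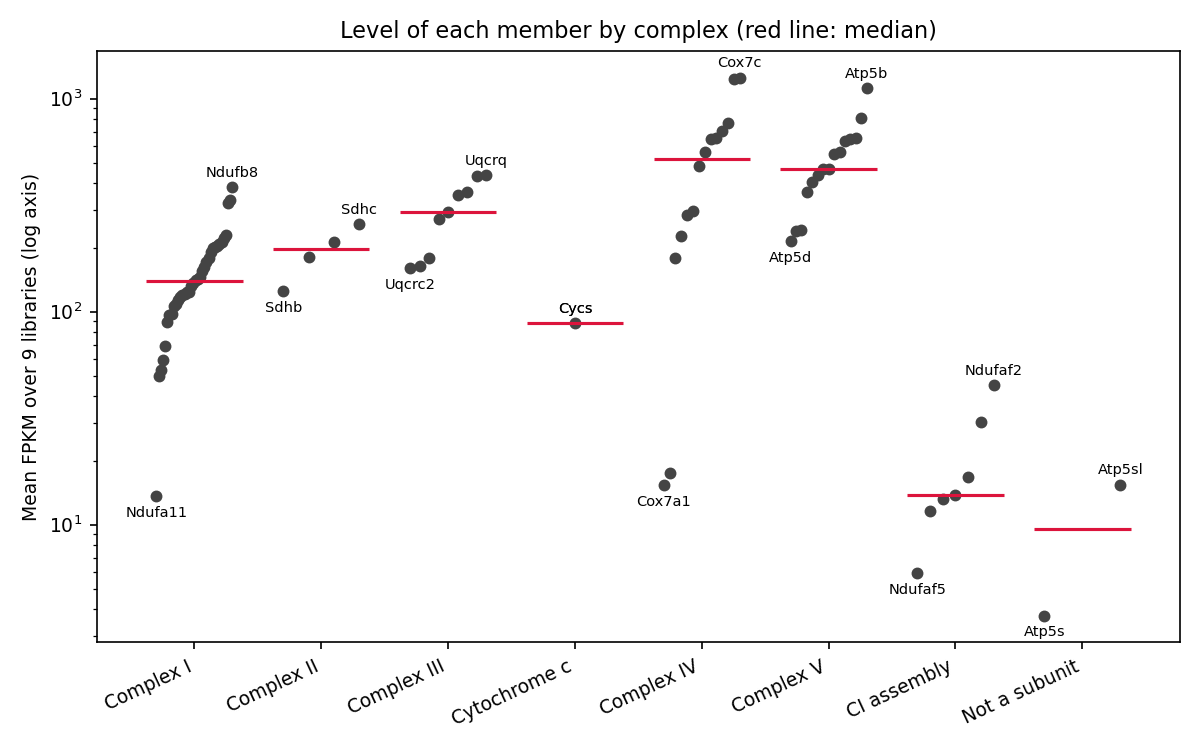
Mean FPKM over the 9 libraries (log axis) for each of the 88 members, 1 point a gene, grouped by complex with the median of each group as a red line. Complex IV and complex V hold the highest genes (Cox7c at 1255 and Atp5b at 1120 FPKM), and the complex I assembly factors lie mostly below 20 FPKM.

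The highest members were Cox7c, a small structural subunit of cytochrome c oxidase, at 1255 FPKM, Cox4i1, its largest nuclear-encoded subunit, at 1230 FPKM, and Atp5b, the catalytic beta subunit of the ATP synthase, at 1120 FPKM. Atp5b was steady, with 1131, 1105 and 1114 FPKM in Vehicle, 1130, 1115 and 1154 in CON-BDEV and 1131, 1100 and 1102 in SE-BDEV. Cox7c stood at 1243, 1240 and 1203 FPKM in Vehicle, 1240, 1259 and 1379 in CON-BDEV and 1265, 1227 and 1238 in SE-BDEV. CON-BDEV replicate 3 was the highest library for both genes, and their groups overlapped. The lowest subunits were Ndufa11 (13.6 FPKM), an accessory subunit of the complex I membrane arm, and the muscle isoforms Cox7a1 (15.3 FPKM) and Cox6a2 (17.5 FPKM).

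Replicates were close. The median coefficient of variation of a member over 3 libraries was 3.03% in Vehicle, 4.70% in CON-BDEV and 4.39% in SE-BDEV. Cox6a2 varied most in each group, with 19.2, 33.0 and 21.4%. Its listed locus spans Itgad as well, and 11 of the 88 members share a listed locus with another gene. The kit was directional, but whether counting used strand is not given in the sources used here, so reads of overlapping genes may not be separated.

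Genes of the respiratory chain are known targets of NRF1, a transcription factor that binds a GC-rich palindrome. Promoters in the RefSeq table of build GRCm38.p6 could be matched for 74 of the 88 members. The 10-base palindrome made of GCGCA and its reverse complement lay within 250 bases upstream of the gene start in 5 of these 74 (6.76%), against 0.877% of all 27025 genes in the table, searched on both strands, where the palindrome reads alike. The 5 windows are shown because they hold the letters that set these members apart in this search, 50 bases each, read on the gene's strand, 5′ to 3′, with the palindrome in capitals. Atp5g2 (subunit c of the ATP synthase), Atp5k (subunit e of the ATP synthase), Cox6a1 (the common isoform of cytochrome c oxidase subunit 6a), Ndufa11 and Ndufaf4 (a complex I assembly factor) carry it at chr15:102671060-102671109 (minus strand), chr5:108434420-108434469 (minus), chr5:115349091-115349140 (minus), chr17:56717682-56717731 (plus) and chr4:24897950-24897999 (plus).
Atp5g2: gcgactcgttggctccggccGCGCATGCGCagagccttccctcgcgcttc
Atp5k: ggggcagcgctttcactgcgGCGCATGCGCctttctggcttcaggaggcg
Cox6a1: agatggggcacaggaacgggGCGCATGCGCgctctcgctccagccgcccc
Ndufa11: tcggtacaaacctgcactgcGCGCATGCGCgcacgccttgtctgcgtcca
Ndufaf4: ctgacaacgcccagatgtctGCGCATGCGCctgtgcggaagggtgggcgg
The first base of the palindrome lay 42 to 162 bases before the gene start. Other motifs were searched in the same windows on both strands. The YY1 motif (AAGATG followed directly by GCGG) was in 2 of 74 members (2.70%, against 0.359% of genes), the ETS motif CCGGAAGT in 3 (4.05% against 3.23%), and TGACNNNGC, the core of the antioxidant response element, in 8 (10.8% against 11.5%). The 27025 genes were not limited to those expressed in these cells, while the members all passed the level limit. Shares over genes of like expression were not computed, so these values do not show that a motif is particular to this pathway. No match says only that these letters are not in that window.

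CON-BDEV against Vehicle asks what vesicles named as control did to these genes. Most members were slightly higher with the vesicles: 76 of 88 had a log2 fold change above 0, against 52.0% of all genes tested, and the median was 0.084, or 6.0% higher, against 0.0054 for all genes. Single genes rarely passed the test. With limma on log2(FPKM + 1) and Benjamini-Hochberg adjustment over 10535 genes, 2 of 88 members rose (Ndufa2 and Cyc1) and 0 fell, while 5.67% of all genes were called, 3.81% higher and 1.86% lower. At an unadjusted limma p under 0.05, 34 members were higher and 1 lower, where 23.5% of all genes were called, 13.9% higher and 9.63% lower. The 3 CON-BDEV libraries all lay above the 3 Vehicle libraries in 41 members (46.6%), against 16.6% of all genes, and all below in 3 (Uqcrq, Atp5s and Atp5sl), against 12.7%. These counts depended on scaling: after quantile normalization 0 members were called, 57 of 88 were above 0 (46.8% of all genes), 10 did not overlap upward (13.5% of all genes) and the median was 0.037.

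**Figure D2:**
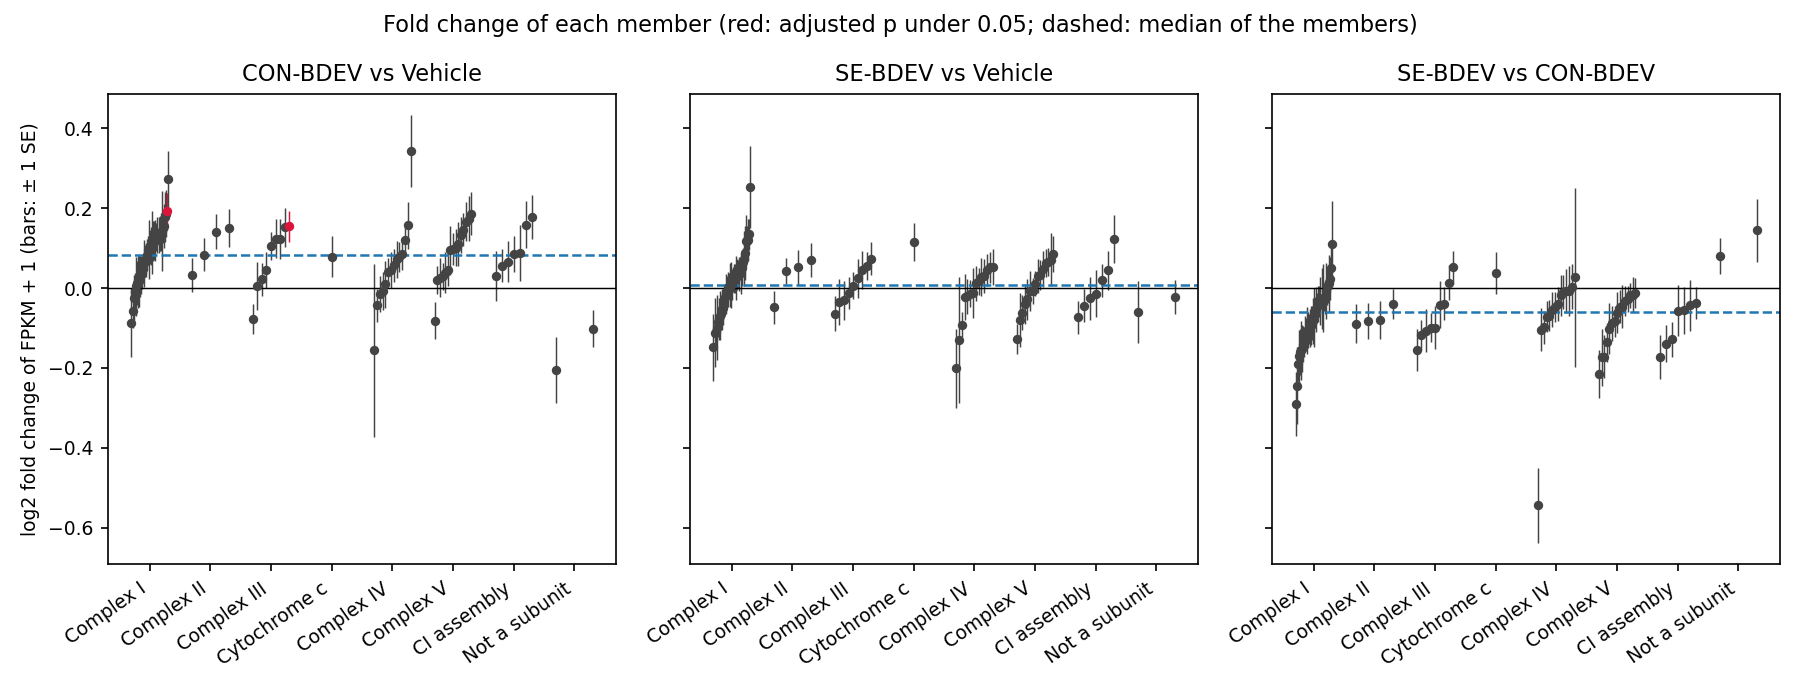
Log2 fold change of FPKM + 1 for each member (points, with bars of 1 SE from limma) in the 3 comparisons, grouped by complex and sorted within each group; red marks an adjusted p under 0.05 and the dashed line the median of the members. The medians are 0.084 for CON-BDEV and 0.0085 for SE-BDEV against Vehicle and -0.059 for SE-BDEV against CON-BDEV, and the 2 red points are Ndufa2 and Cyc1.

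Complex I takes electrons from NADH. Of its 36 genes, 1 rose, 0 fell, 32 were above 0 and the median log2 fold change was 0.10. Ndufa2, an accessory subunit of the matrix arm, stood at 90.1, 95.2 and 95.1 FPKM in Vehicle, 103, 112 and 106 in CON-BDEV and 75.0, 98.2 and 89.9 in SE-BDEV. All 3 CON-BDEV libraries lay above every other library, and SE-BDEV replicate 1 was the lowest of the 9. The rise over Vehicle was 0.19 on the log2 scale (SE 0.046), with a limma adjusted p of 0.0472. Of the 6 fits that left out 1 library, it held in 1, that without CON-BDEV replicate 1, and it missed the threshold after quantile normalization. Ndufa2 shares its listed locus with Tmco6, which was at 3.79 to 6.54 FPKM.

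Ndufa1, a small membrane-arm subunit needed for complex I assembly, had the largest difference of complex I without passing the test. It stood at 116, 135 and 123 FPKM in Vehicle, 137, 158 and 157 in CON-BDEV and 124, 141 and 140 in SE-BDEV. Vehicle and CON-BDEV did not overlap, and the SE-BDEV libraries lay across both. The log2 difference was 0.27 (SE 0.071, limma adjusted p of 0.0595). Ndufb8, the highest complex I gene and a subunit often used to judge complex I assembly, stood at 368, 372 and 380 FPKM in Vehicle, 400, 416 and 408 in CON-BDEV and 369, 358 and 388 in SE-BDEV. For Ndufb8 CON-BDEV stood above both other groups (log2 difference from Vehicle 0.13, SE 0.036, limma adjusted p of 0.0736). Among core subunits the differences ran from 0.015 (Ndufs7) to 0.12 (Ndufv1, the flavoprotein that binds NADH), with a median of 0.070 and 0 calls. The lowest of complex I was Ndufab1, an acyl carrier protein that also serves lipoic acid synthesis, at -0.087 (SE 0.087, limma adjusted p of 0.586).

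Complex II had 0 of 4 genes past the threshold, with all 4 above 0 and a median of 0.11. Sdhb, the iron-sulfur subunit, stood at 115, 115 and 123 FPKM in Vehicle, 127, 129 and 138 in CON-BDEV and 119, 129 and 124 in SE-BDEV. CON-BDEV and Vehicle did not overlap (log2 difference 0.15, SE 0.048, limma adjusted p of 0.103). Sdhc, a membrane anchor, had the smallest difference at 0.033 (SE 0.043).

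In complex III 1 of 9 genes rose, 0 fell, and the median was 0.11. Cyc1 encodes cytochrome c1, the heme subunit that passes electrons to cytochrome c, and lies on chromosome 15 from 76173953 to 76176364 in mm9, with starts counted from 1. It stood at 266, 260 and 254 FPKM in Vehicle, 295, 293 and 282 in CON-BDEV and 277, 270 and 264 in SE-BDEV. All CON-BDEV libraries lay above all others, and SE-BDEV overlapped Vehicle. The rise over Vehicle was 0.15 on the log2 scale (SE 0.038), with a limma adjusted p of 0.0497, just inside the threshold. It held in none of the 6 fits that left out 1 library. Uqcrq, a small membrane subunit, went the other way, with 457, 452 and 445 FPKM in Vehicle and 414, 432 and 438 in CON-BDEV, which did not overlap (log2 difference -0.078, SE 0.038, limma adjusted p of 0.252). Cycs, the soluble carrier between complexes III and IV, differed by 0.078 (SE 0.051, limma adjusted p of 0.386), with overlapping groups.

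Complex IV had the smallest median of the complexes, 0.051, with 0 of 14 genes called and 10 above 0. Cox7a1, the isoform of subunit 7a typical of heart and skeletal muscle, had the largest difference of any member. It stood at 12.9, 14 and 17.1 FPKM in Vehicle, 18.2, 19.8 and 18.3 in CON-BDEV and 11.4, 12.4 and 14 in SE-BDEV. CON-BDEV lay above all other libraries, while SE-BDEV overlapped Vehicle. The log2 difference from Vehicle was 0.34 (SE 0.090, limma adjusted p of 0.0614). Of 5 muscle and heart markers 0 reached 1 FPKM, 3 were at 0 in every library, and their sum was at most 0.0774 FPKM in any library. Cox4i1 stood at 1223, 1171 and 1150 FPKM in Vehicle and 1254, 1286 and 1314 in CON-BDEV, without overlap (log2 difference 0.12, SE 0.040, limma adjusted p of 0.108).

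Complex V had 0 of 15 genes called, 14 above 0 and a median of 0.098. The 5 genes of the catalytic F1 head had a median of 0.029 and the 10 of the membrane part and stalk 0.106. Atp5e, the small epsilon subunit of the head's central stalk, was the highest, at 445, 466 and 438 FPKM in Vehicle, 473, 522 and 543 in CON-BDEV and 408, 452 and 466 in SE-BDEV. CON-BDEV lay above all other libraries (log2 difference from Vehicle 0.19, SE 0.054, limma adjusted p of 0.0788). Atp5b differed by 0.021 (SE 0.035), and Atp5g2 was the only gene of the complex below 0 (-0.082, SE 0.046, limma adjusted p of 0.314).

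The genes the naming rule caught that are no subunits were split. All 7 Ndufaf genes were above 0 with CON-BDEV (0.031 to 0.18, median 0.085, 0 called). Atp5s and Atp5sl were both below 0, at -0.20 (SE 0.082) and -0.10 (SE 0.046), with limma adjusted p of 0.174 and 0.222. Atp5s was the lowest member of all 88, at 3.74, 4.58 and 3.80 FPKM in Vehicle, 3.38, 3.59 and 3.13 in CON-BDEV and 3.63, 4.11 and 3.73 in SE-BDEV. With the 79 subunits alone, 2 were called higher, against 3.81% of all genes. Without overlap, 37 lay upward, against 16.6% of all genes, and the median was 0.085.

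**Figure D3:**
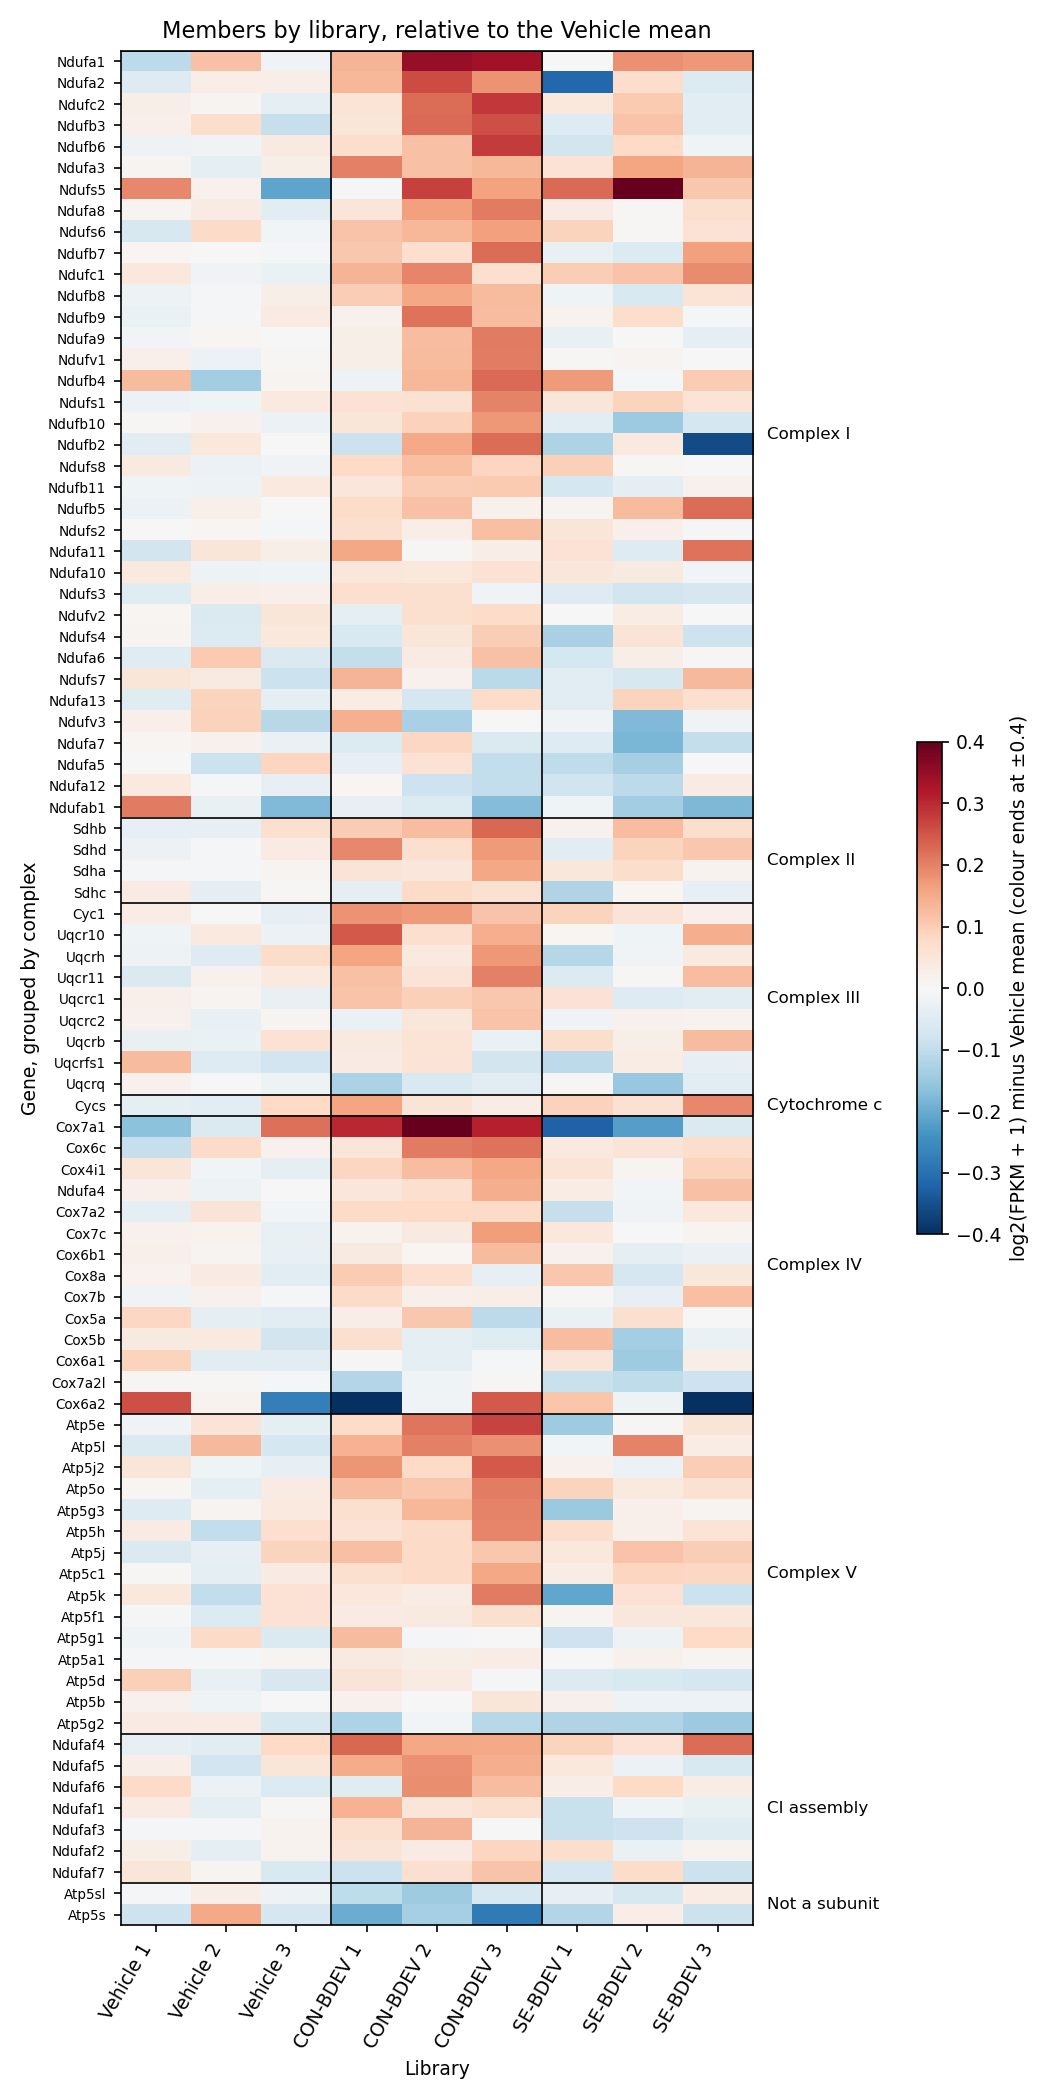
Log2(FPKM + 1) of each of the 88 members in each library minus the mean of the 3 Vehicle libraries (colour scale, ends at ± 0.4), genes in rows grouped by complex and sorted by the CON-BDEV difference, libraries in columns. The 3 CON-BDEV columns are mostly red, with 69, 74 and 69 of 88 genes above the Vehicle mean, and the SE-BDEV columns are mixed, with 45, 50 and 53.

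The difference was seen in each CON-BDEV library and varied in size between them. The median deviation of the 88 members from the Vehicle mean was 0.054, 0.068 and 0.116 in CON-BDEV replicates 1 to 3, 0.0027, 0.0063 and 0.014 in SE-BDEV, and between -0.0056 and 0.0076 in Vehicle. All 3 CON-BDEV libraries lay above the other 6. The same median over all genes tested was 0.0024, 0.0045 and 0.014 in CON-BDEV. By complex, the CON-BDEV medians were 0.049, 0.109 and 0.121 for complex I and 0.064, 0.076 and 0.155 for complex V, so replicate 1 was lowest in both.

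**Figure D4:**
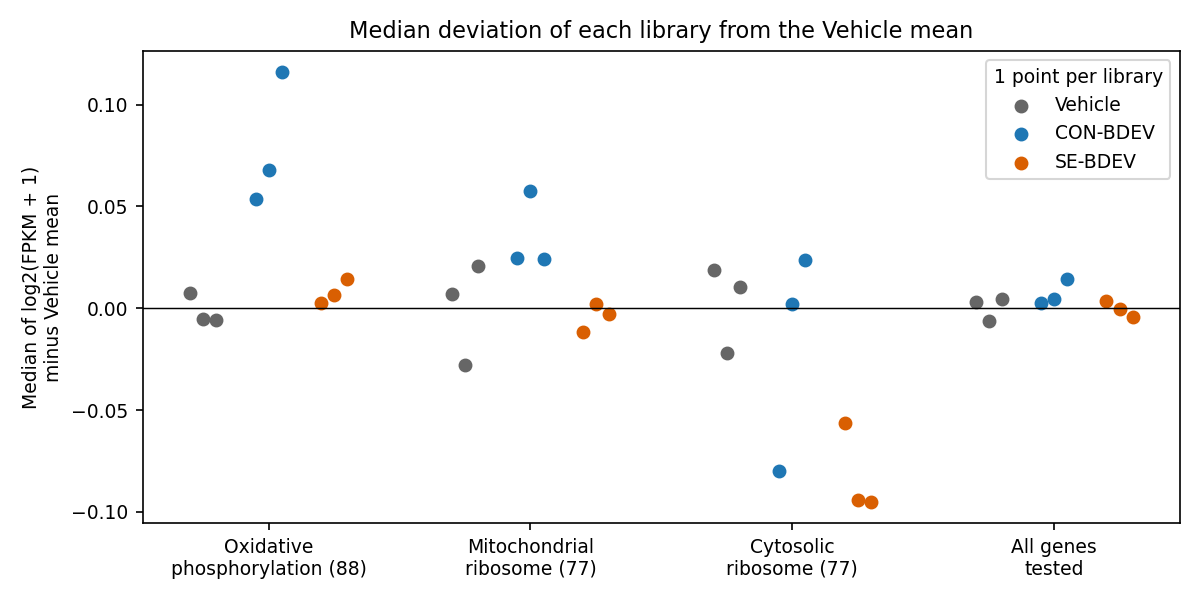
Median deviation of each library from the Vehicle mean, on log2(FPKM + 1), for the 88 oxidative phosphorylation genes, 77 mitochondrial and 77 cytosolic ribosomal protein genes and all genes tested, 1 point a library coloured by group. The CON-BDEV points reach 0.116 for oxidative phosphorylation, and the cytosolic ribosomal points of SE-BDEV lie between -0.095 and -0.056.

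Other abundant gene families with short transcripts gave smaller values in the same comparison. The median log2 fold change with CON-BDEV was -0.019 over 77 cytosolic ribosomal protein genes (0 called) and 0.018 over 77 mitochondrial ribosomal protein genes (1 higher, Mrpl52). A list closer in function did not, as 20 genes of the tricarboxylic acid cycle and pyruvate entry had a median of 0.094. In level bins chosen after the values were seen, the 41 members at 100 to 300 FPKM had a median of 0.095 against 0.040 for all genes there, and the 27 members at 300 FPKM or more 0.098 against 0.016. Member transcripts are short, with a median of 763 nt against 2667 nt for all genes tested. The 36 members under 700 nt had a median of 0.090, against 0.028 for 132 other genes under 700 nt and at 50 FPKM or more. CON-BDEV lay wholly above Vehicle in 53.66% of the members at 100 to 300 FPKM, against 29.8% of all genes there. At 300 FPKM or more these shares were 48.15% and 24.39%. Among the 36 members under 700 nt the share was 44.44%, and among the 132 other genes 26.52%. Across 87 members with a length, Spearman's rho between log2 fold change and transcript length was -0.21, and across 88 members 0.066 with mean FPKM. Genes of 1 library share its depth and composition, so these are descriptions and were given no p.

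SE-BDEV against Vehicle asks the same of the vesicles of the status epilepticus kind. The members hardly moved as a group: 48 of 88 were above 0, against 49.8% of all genes, and the median was 0.0085, against -0.0008. By limma with Benjamini-Hochberg adjustment 0 of 88 members were called, while 11.9% of all genes were, 6.76% higher and 5.14% lower. At an unadjusted limma p under 0.05, 5 members were higher and 4 lower, where 27.4% of all genes were called, 14% higher and 13.4% lower. The libraries of both groups did not overlap in 5 members upward and 6 downward, against 16.5% and 16.3%. The authors' deposited table had 0 members with a q-value under 0.05. Both comparisons share the 3 Vehicle libraries, so their values are not independent of each other.

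No complex stood out with SE-BDEV. The median was 0.0085 for complex I, 0.047 for complex II, 0.0061 for complex III, -0.00027 for complex IV and 0.010 for complex V. The lowest p-values were those of Ndufc1, an accessory membrane subunit of complex I, and Atp5g2, which both missed the threshold and of which Ndufc1 was chosen after its values were seen. Ndufc1 stood at 109, 105 and 104 FPKM in Vehicle, 116, 121 and 111 in CON-BDEV and 113, 115 and 121 in SE-BDEV. Both vesicle groups lay above Vehicle in all libraries, and the log2 difference with SE-BDEV was 0.13 (SE 0.039, limma adjusted p of 0.0536). Atp5g2 stood at 681, 681 and 637 FPKM in Vehicle, 612, 661 and 617 in CON-BDEV and 613, 613 and 602 in SE-BDEV. All SE-BDEV libraries lay below Vehicle, with a difference of -0.13 (SE 0.037, limma adjusted p of 0.0555), and it passed after quantile normalization.

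The extremes of this comparison were genes with a wide spread. Ndufs5, an accessory subunit on the intermembrane side of complex I, stood at 112, 99.2 and 84.5 FPKM in Vehicle, 97.6, 119 and 109 in CON-BDEV and 115, 132 and 106 in SE-BDEV. SE-BDEV replicate 2 was highest, and the groups overlapped (log2 difference 0.25, SE 0.10, limma adjusted p of 0.143). Ndufs5 shares its listed locus with BC002163, at 2.35 to 4.32 FPKM. Cox7a1 was lowest, at -0.20 (SE 0.099, limma adjusted p of 0.223), with Vehicle and SE-BDEV overlapping. Cycs stood at 81.9, 81.8 and 89.0 FPKM in Vehicle, 93.9, 87.1 and 85.8 in CON-BDEV and 89.8, 87.8 and 96.3 in SE-BDEV. It was higher by 0.12 (SE 0.049) with SE-BDEV, with a limma adjusted p of 0.160 and an overlap with the third Vehicle library.

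SE-BDEV against CON-BDEV asks whether the source of the vesicles mattered, and it was tested directly, in 1 limma fit of all 9 libraries and 10532 genes. No gene of the whole table passed the adjusted threshold (0.0% called), and so 0 of 88 members did. The members leaned to lower values with SE-BDEV: 13 were above 0 and 75 below, against 47.0% of all genes above 0, and the median was -0.059, against -0.0045. At an unadjusted limma p under 0.05, 24 members were lower and 0 higher, where 4.83% of all genes were called, 3.59% lower and 1.24% higher. SE-BDEV lay wholly below CON-BDEV in 21 members, against 5.19% of all genes, and wholly above in 2 (Atp5s and Atp5sl), against 2.74%. The CON-BDEV libraries are the same ones compared with Vehicle above, so this is not a second observation of their level. After quantile normalization 31 of 88 members were above 0 (52.7% of all genes), 10 did not overlap downward (3.53% of all genes) and the median was -0.029.

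Medians of SE-BDEV against CON-BDEV were -0.078 for complex I, -0.081 for complex II and -0.099 for complex III. They were -0.044 for complex IV and -0.062 for complex V, where all 15 genes were below 0. The 7 Ndufaf genes had a median of -0.057 and were all below 0. Other abundant genes leaned the same way here. The cytosolic ribosomal genes had a median of -0.057, the mitochondrial ribosomal genes -0.037, all genes at 300 FPKM or more -0.045, and the 132 other short and abundant genes -0.054. SE-BDEV lay wholly below CON-BDEV in 15.58%, 7.79%, 16.38% and 16.67% of these sets, in the same order, against 23.86% of the members. Of the 77 cytosolic ribosomal genes, 73 were below 0. Cox7a1 had the lowest unadjusted p of the members (0.00013) and the largest difference, -0.54 (SE 0.095), with a limma adjusted p of 0.478. Its SE-BDEV libraries, given above, ended at 14 FPKM and its CON-BDEV libraries began at 18.2. Ndufa2 differed by -0.29 (SE 0.080) and Atp5e by -0.21 (SE 0.060), each with a limma adjusted p of 0.991, and neither overlapped between both groups.

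**Figure D5:**
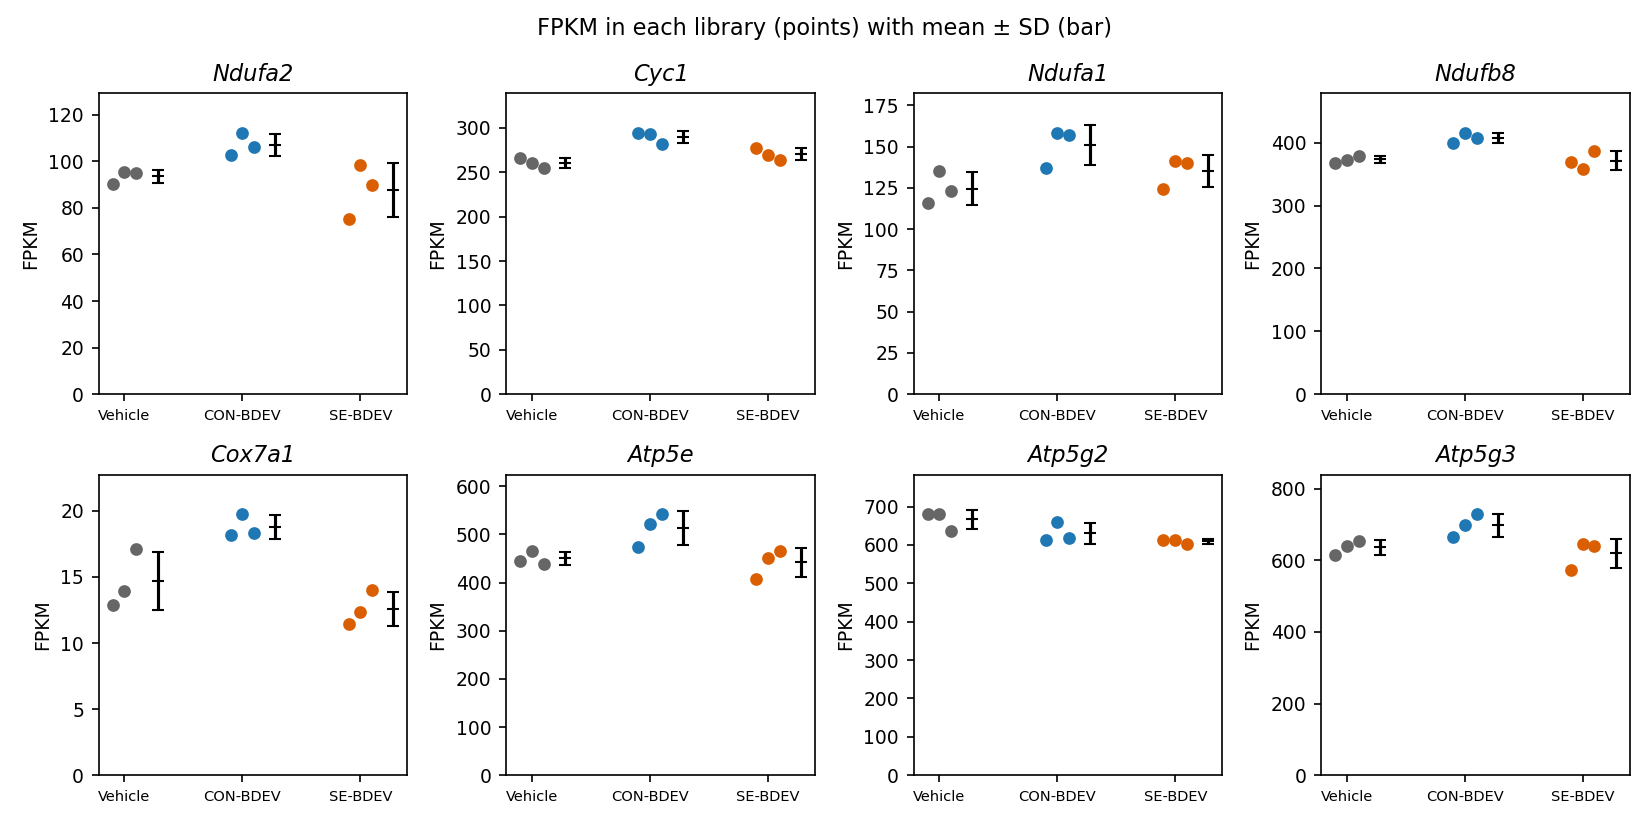
FPKM of 8 members in each library (points, coloured by group) with the group mean ± SD as bars, axes from 0. Ndufa2, Cyc1, Ndufb8, Cox7a1, Atp5e and Atp5g3 have all 3 CON-BDEV points above both other groups. Atp5g2 has all 3 SE-BDEV points, at 602 to 613 FPKM, below Vehicle.

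Several subunits are made from more than 1 gene, and the mix of these copies was compared as shares of their summed FPKM, with exact permutation tests of 3 against 3 libraries that cannot go below a 2-sided p of 0.1. Subunit c forms the rotor ring of the ATP synthase, and Atp5g1, Atp5g2 and Atp5g3 encode the same mature protein. Atp5g2 made up 43.2% ± 1.29 of the sum in Vehicle, 40.0% ± 1.26 in CON-BDEV and 41.6% ± 1.63 in SE-BDEV (mean ± SD, n = 3 each). Atp5g3 made up 41.3% ± 1.53, 44.3% ± 1.51 and 42.2% ± 1.39, and Atp5g1 15.5% ± 0.467, 15.7% ± 1.16 and 16.2% ± 0.588. In Vehicle Atp5g2 led in 2 libraries and Atp5g3 in replicate 3, while in all 3 CON-BDEV libraries Atp5g3 led. For CON-BDEV against Vehicle the groups did not overlap for either gene (exact permutation p = 0.1, the smallest possible, adjusted p = 0.42 over 21 comparisons). In FPKM, Atp5g3 stood at 614, 640 and 654 in Vehicle, 665, 698 and 730 in CON-BDEV and 573, 645 and 640 in SE-BDEV.

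The muscle isoforms were minor partners in every group. Cox7a1 made up 7.67% ± 1.08 of Cox7a1 plus Cox7a2 in Vehicle, 9.15% ± 0.382 in CON-BDEV and 6.73% ± 0.359 in SE-BDEV (SD, n = 3 each). The share in SE-BDEV lay wholly below that in CON-BDEV (exact permutation p = 0.1, adjusted p = 0.42), and CON-BDEV overlapped Vehicle. Cox7a2, the common isoform, stood at 172, 183 and 175 FPKM in Vehicle, 186, 186 and 186 in CON-BDEV and 166, 175 and 182 in SE-BDEV. Cox6a2 made up 3.65% ± 0.518, 3.40% ± 1.1 and 3.42% ± 0.767 of Cox6a1 plus Cox6a2, with overlapping groups. Cox7a2l stood at 235, 235 and 233 FPKM in Vehicle, 216, 231 and 235 in CON-BDEV and 220, 218 and 221 in SE-BDEV. SE-BDEV lay below Vehicle (log2 difference -0.091, SE 0.031, limma adjusted p of 0.0902).

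Genes that feed, build or use the respiratory chain gave a few calls by limma with adjustment over all genes. Of 20 genes of the tricarboxylic acid cycle and pyruvate entry, 2 rose with CON-BDEV and 3 with SE-BDEV, and 0 fell with either, where 5.67% and 11.9% of all genes were called. Mpc1 and Pdhx rose with both. Mpc1, a subunit of the mitochondrial pyruvate carrier, rose from a mean of 74.7 FPKM to 98.6 with CON-BDEV (log2 difference 0.40, SE 0.036, limma adjusted p of 0.00151) and 98.7 with SE-BDEV (0.39, SE 0.071, limma adjusted p of 0.00911). Pdhx, a structural part of the pyruvate dehydrogenase complex, rose by 0.19 in both. The medians of this list were 0.094 and 0.046. With CON-BDEV 18 of the 20 genes were above 0 and 2 below, and 45% lay wholly above Vehicle, near the 46.6% of the members. The lean upward with CON-BDEV was thus not particular to the members.

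Of 17 genes of coenzyme Q synthesis and other electron donors, Sqrdl, which passes electrons from sulfide to coenzyme Q, rose by 0.29 with CON-BDEV and by 0.22 with SE-BDEV. Etfdh, the entry point of electrons from fatty acid oxidation, rose by 0.24 with SE-BDEV, and Coq9, a lipid-binding protein of coenzyme Q synthesis, was the 1 that fell there (-0.18). Of 41 assembly factors outside the naming rule, Cox14, needed for complex IV assembly, rose with CON-BDEV (0.20), and Coa5 (0.23), a complex IV assembly factor, and Atpaf2 (0.17), which helps build the F1 head, rose with SE-BDEV. Of 16 regulators of mitochondrial biogenesis, Esrra, a nuclear receptor that drives respiratory genes, rose with CON-BDEV (0.21), and Tfb2m, a mitochondrial transcription factor, with SE-BDEV (0.19). Of 27 genes of inner membrane organisation and import, Timm9, a chaperone of the intermembrane space, rose with CON-BDEV (0.25), and 0 were called with SE-BDEV. Over all genes tested, 5.67% were called with CON-BDEV and 11.9% with SE-BDEV, so these few calls are not read as a trait of the lists. No gene of these lists was called between SE-BDEV and CON-BDEV.

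The authors' deposited table for CON-BDEV had 0 of 88 members with a q-value under 0.05, and its lowest was 0.0999, for Ndufa1. For Cyc1 and Ndufa2 the authors' deposited table gave q-values of 0.458 and 0.473. It listed 76 members as higher, with a median log2 fold change of 0.085. In the authors' deposited table for SE-BDEV, the lowest q-value of a member was 0.532, for Atp5g2, and 48 were listed as higher. Over all genes the same tables had 497 and 617 with a q-value under 0.05.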

How the data were processed

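PolyA-selected RNA-seq was read from 9 libraries, 3 each of Vehicle, CON-BDEV and SE-BDEV, grouped by their titles. TopHat2 and Cuffdiff on mm9 were used, per the submitters' processing notes; versions and annotation are not given in the sources used here. The authors deposited FPKM for 24318 genes in 2 tables, each holding the Vehicle libraries. The deposited Cuffdiff tables also give, per the file headers, group FPKM, the log2 fold change, the test score, and p-values and q-values. The Vehicle columns differ between tables by constant factors (1.00042, 1.00012 and 1.00078), and the SE-BDEV libraries were divided by their geometric mean to join them. There were 100 entries naming several genes, and genes with a failed estimate (2 and 1 in the tables) were left out.

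FPKM values are not counts, so log2(FPKM + 1) was tested with limma 3.58.1 in R 4.3.3 (eBayes with trend, 2-sided). Genes whose mean over a fit's libraries was under 1 FPKM were left out. The added 1 shrinks changes of low genes. Each vesicle group was tested against Vehicle within its table, and SE-BDEV against CON-BDEV in 1 fit of all 9 libraries. Benjamini-Hochberg adjustment ran over all genes tested, with a threshold of 0.05. Shares of gene copies were compared by exact permutation tests. The fits were tested on simulated data. The members and lists were chosen with earlier results of these data known. The rule for naming members took those past the threshold, the 2 highest in each complex, the extremes of each comparison with Vehicle, all gene copies and calls of the other lists, apart from some results of those lists that are not reported here. Ndufc1, Ndufa11, Atp5s, Atp5sl, Ndufs7, Ndufv1 and the assembly factors were named outside it after their values were seen, or because they are no subunits. Alternatives were another pseudocount (0.1), no filter, a filter of 5 FPKM, quantile normalization, limma without trend, other libraries in the fit, blocks, subunits only, and each library left out.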

Additional observations from a re-analysis of the deposited data

How the results depend on the processing

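No member that was called changed direction under any alternative. Of the recomputed log2 fold changes of named members, 1470 kept their call or stayed within 1 SE, 22 lost a call, 17 gained one and 66 uncalled values shifted by over 1 SE. For CON-BDEV against Vehicle, the 2 called members became 0 with no filter, after quantile normalization, without limma's trend and with a block for the number in the library name, 4 with all 9 libraries in the fit, and 0 to 13 with 1 library left out. The 13 came without CON-BDEV replicate 1, 0 without Vehicle replicate 1, Vehicle replicate 2 or CON-BDEV replicate 3, and 1 without Vehicle replicate 3. Shares of all genes called under the alternatives are not given here, for this or the next comparison. The counts of called members are therefore not read as a trait of the members. Members lying wholly above Vehicle numbered 10 after quantile normalization (13.5% of all genes), and 44 to 54 with 1 library left out (19.2 to 25.3% of all genes). Those wholly below were 1 of the subunits alone, 6 after quantile normalization (15.6% of all genes) and 3 to 5 with 1 library left out (15.8 to 20.6% of all genes). The median was 0.037 after quantile normalization and 0.070 to 0.101 with 1 library left out. For SE-BDEV against Vehicle, 2 were called after quantile normalization (Atp5g2 and Cox7a2l, lower), 1 with the library-name block (Cox7a1, lower) and 0 to 2 with 1 library left out, 2 of them without SE-BDEV replicate 1 and 1 without Vehicle replicate 3. With 1 library left out, 9 to 13 members lay wholly above Vehicle (19.8 to 23.6% of all genes) and 7 to 12 wholly below (19.4 to 22%). For SE-BDEV against CON-BDEV, 0 were called in every alternative. After quantile normalization 31 members were above 0 (52.7% of all genes), 10 lay wholly below (3.53%) and the median was -0.029. Members wholly above were 0 of the subunits alone, 1 at 5 FPKM or more and 2 to 4 with 1 library left out (2.73 to 9.33% of all genes). Those wholly below were 21 to 39 (5.19 to 13.7% of all genes), with 39 without CON-BDEV replicate 1 and 32 without SE-BDEV replicate 3, and the median ran from -0.084, without CON-BDEV replicate 1, to -0.054. Fewer libraries make groups overlap less by construction, and the cause of the other shifts was not tested.

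With the replicate block, 1 member was called with CON-BDEV (Ndufa1) and 2 with SE-BDEV (Ndufs5 higher, Cox7a1 lower). The share of all genes called with this block is not given here, so these calls are not read as a trait of the members. Same-numbered libraries gave no sign of pairing, with a mean correlation of -0.04 (9 pairs, -0.264 to 0.194). So few pairs with this spread cannot exclude it. The labels name no pairing, and the numbers were taken as names only. The number in the library name, whose meaning the labels do not give, is spread unevenly over the groups. Vehicle replicates 1 and 2 share it with replicate 1 of each vesicle group, and the other libraries have another. Its part in the differences from Vehicle can therefore not be fully told apart from that of the vesicles. With 3 libraries a group, single-gene calls rest on limma's pooled spread, and depth was estimated, not counted.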
